A study of Mus musculus with 6 samples.

Results

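The 9 genes described here encode DOT1L, the methyltransferase of histone H3 lysine 79, and proteins that work with it or with the super elongation complex (SEC), namely Dot1l, Mllt1, Mllt3, Mllt6, Mllt10, Aff1, Aff4, Ell and Ell2. They were chosen by gene symbol for their place in the pathway downstream of H2B monoubiquitination, and all 9 were found among the 29955 genes of the deposited expression table. RNA was sequenced from 3 samples of Rnf40+/+ mouse embryo fibroblasts (MEFs) and 3 samples of Rnf40-/- MEFs, all at passage 3. RNF40 is a subunit of the ligase that places ubiquitin on H2B. According to the methods, the Rnf40-/- cells carried loxP sites around exons 3 and 4 of both Rnf40 alleles together with a tamoxifen-inducible Cre recombinase (CreERT2) in the ubiquitously expressed Rosa26 locus, and deletion was induced in culture with 250 nM 4-hydroxytamoxifen (4-OHT) for 5 days followed by 3 days without it. The sources do not state whether the Rnf40+/+ cells carried the Cre transgene or received 4-OHT, so the deletion, the transgene and the treatment cannot be told apart. They also do not state whether replicates came from separate embryos, so p values measure the spread between these samples only.

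DOT1L is the only known enzyme for this methylation in mammals, and nucleosomes with ubiquitinated H2B stimulate its activity, which links it to RNF40. AF10 and AF17 (Mllt10 and Mllt6) are cofactors of DOT1L, while the YEATS domain proteins ENL and AF9 (Mllt1 and Mllt3) read acylated histones and bind either DOT1L or the AFF scaffolds of the SEC. In the SEC, AFF1 or AFF4 holds together an ELL protein, which keeps RNA polymerase II moving, and the kinase P-TEFb, which releases it from pausing.

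The libraries held between 17053436 and 26344170 reads on genes, and the deposited values are reads divided by 1 size factor per library (here called normalized counts). The normalized count of Rnf40 itself fell from 1189.5 ± 91.2 to 482 ± 39.9 (SD, n = 3 each), with -1.30 as its log2 fold change (adjusted p = 4.25e-07, limma). All 12 fibroblast markers examined were expressed, 10 of them lower in Rnf40-/- cells, whose summed level was between 424730 and 427980, against between 705420 and 772770 in Rnf40+/+ cells. Of 12 tested macrophage markers 6 were lower and 2 higher in Rnf40-/- cells. The sum of all 13 macrophage markers ranged from 6732 to 12796 in Rnf40+/+ and from 4061 to 4605 in Rnf40-/- libraries. The sum of 6 endothelial markers ranged from 62.2 to 150.5 in Rnf40+/+ and from 196.8 to 303 in Rnf40-/- libraries. Of the 5 endothelial markers that could be tested, 3 were higher and 0 lower in Rnf40-/- cells. The largest Rnf40+/+ sum included Tek at 114.65 in replicate 1, against 11.2 and 16.0 in replicates 2 and 3. Rnf40+/+ replicate 3 had the largest sum of macrophage markers (C1qa at 1211 against 386 and 395). The macrophage markers did not all go the same way. Ptprc was at 46.6, 65.3 and 75.9 in Rnf40+/+ and between 154.85 and 171 in Rnf40-/- libraries. Cd14 was between 102.7 and 120.3 in Rnf40+/+ and between 156.55 and 204 in Rnf40-/- libraries. Lyz2 was the largest part of the sum, at 3945, 4557 and 7440 in Rnf40+/+ libraries. Rnf40+/+ replicate 1 had the most of the Y-linked gene Ddx3y (81.2 against 7.14 and 2.40). Ddx3y was at most 4.17 in Rnf40-/- libraries. Xist, another marker of sex, was high in every library, at 9345, 8741 and 9616 in Rnf40+/+ and between 7178 and 9442 in Rnf40-/- libraries. The sum of 5 skeletal muscle markers ranged from 1709 to 4881 in Rnf40+/+ and from 438 to 496 in Rnf40-/- libraries, and the 2 that could be tested, Acta1 and Des, were both lower. Acta1 had 4449, 1905 and 1592 normalized counts in Rnf40+/+ and between 409 and 453 in Rnf40-/- libraries, and Myod1 had no read in any library. Myog had at most 7.14 and Myf5 at most 2.83 normalized counts in any library. The sum thus rested on Acta1 and Des and does not establish that muscle cells were present. The part of other cell types in the results was not tested. Each of the 5 calls described below held without Rnf40+/+ replicate 1 and without Rnf40+/+ replicate 3, left out 1 at a time. The genotypes still differed in Acta1 and C1qa in the remaining libraries, so these refits cannot address the cell mixture. In bulk RNA, fewer cells that express a gene and less RNA per cell cannot be told apart.

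Expression of 4 of the 9 genes, Dot1l, Mllt1, Mllt3 and Ell, was higher in Rnf40-/- MEFs, and that of Ell2 was lower, with an adjusted p value under 0.05. The test was limma on log2(normalized count + 1) with Benjamini-Hochberg adjustment over the 16378 genes with enough reads, and all 9 genes passed the filter on low reads. By the same rule 47.4% of all tested genes were called, 23.3% as higher and 24.1% as lower, so that 5 of 9 (55.6%) is a share near the background. Among the 4178 genes whose mean lay within the range of the 9 genes the share was 58.2%. The rise was largest for Mllt3, 1.53 times the Rnf40+/+ mean, and for Ell, 1.503 times. The criteria of the study were a mean over 15, an unadjusted p below 0.05 and a log2 fold change beyond 1 in either direction. They were applied here to the limma values, whereas the study used DESeq, and none of the 9 genes passed. Of the tested genes 9.95% passed in this way, 4.25% as higher and 5.7% as lower. The median log2 fold change was -0.0058 over the 9 genes and -0.0035 over all tested genes. The values rest on between 431 and 2999 reads per gene and library.

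**Figure D1:**
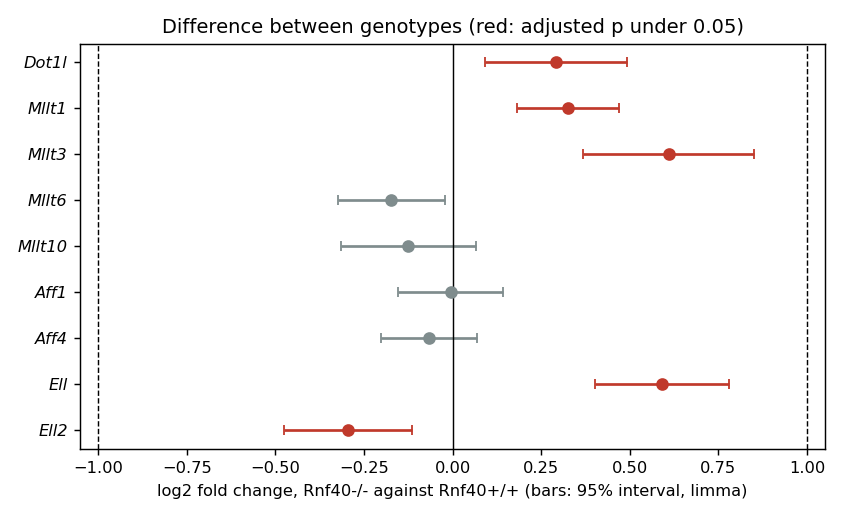
Log2 fold change of each of the 9 genes between Rnf40-/- and Rnf40+/+ MEFs (horizontal axis, points) with the 95% interval from limma (bars), on genes listed along the vertical axis. Red points mark an adjusted p under 0.05 and dashed lines the study's limits of -1 and 1. Mllt3 (0.61) and Ell (0.59) lie farthest to the right, Ell2 (-0.29) farthest to the left, and no gene reaches a dashed line.

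The promoters of the 5 genes with a call are shown. The direction of change differed among these genes, and in particular between Ell and Ell2, whose products are alike. RefSeq sequences (taken from GRCm38.p6, 250 bases before to 50 bases after the start of transcription) matched all 9 genes with 13 promoters, and each matched the mm9 genome exactly at 1 place. The positions in mm9 are chr10:80217698-80217997 for Dot1l (plus strand), chr17:57074762-57075061 for Mllt1 (minus strand), chr4:87679262-87679561 for the upstream start of Mllt3 (minus strand), chr8:73063324-73063623 for Ell (plus strand) and chr13:75844682-75844981 for Ell2 (plus strand). Capitals mark every match, on either strand, to a TATA box, a GC box, a CCAAT box, a cyclic AMP response element (CRE, TGACGTCA), an E box, an E2F site (TTTCGCGC or TTTGGCGC), an NRF1 site, an ETS site (CCGGAAGT) or a YY1 site (ATGGCGGC).
Dot1l: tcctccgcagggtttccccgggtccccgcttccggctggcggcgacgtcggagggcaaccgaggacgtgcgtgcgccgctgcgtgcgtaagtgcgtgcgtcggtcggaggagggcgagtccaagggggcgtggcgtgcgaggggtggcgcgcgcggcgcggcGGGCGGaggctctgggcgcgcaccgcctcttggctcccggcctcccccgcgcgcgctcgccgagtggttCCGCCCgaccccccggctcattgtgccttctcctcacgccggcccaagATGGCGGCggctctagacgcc
Mllt1: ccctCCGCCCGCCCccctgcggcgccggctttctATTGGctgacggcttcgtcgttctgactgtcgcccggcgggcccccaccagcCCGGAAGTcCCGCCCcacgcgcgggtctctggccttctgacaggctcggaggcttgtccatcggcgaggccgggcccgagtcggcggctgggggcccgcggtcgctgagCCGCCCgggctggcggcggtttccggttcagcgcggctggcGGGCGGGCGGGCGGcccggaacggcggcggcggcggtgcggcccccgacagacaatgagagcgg
Mllt3: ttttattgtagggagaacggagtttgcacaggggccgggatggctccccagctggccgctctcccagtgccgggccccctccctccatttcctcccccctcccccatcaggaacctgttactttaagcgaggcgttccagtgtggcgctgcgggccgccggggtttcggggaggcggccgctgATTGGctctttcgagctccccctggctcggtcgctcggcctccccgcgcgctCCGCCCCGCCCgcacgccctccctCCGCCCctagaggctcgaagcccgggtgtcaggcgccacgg
Ell: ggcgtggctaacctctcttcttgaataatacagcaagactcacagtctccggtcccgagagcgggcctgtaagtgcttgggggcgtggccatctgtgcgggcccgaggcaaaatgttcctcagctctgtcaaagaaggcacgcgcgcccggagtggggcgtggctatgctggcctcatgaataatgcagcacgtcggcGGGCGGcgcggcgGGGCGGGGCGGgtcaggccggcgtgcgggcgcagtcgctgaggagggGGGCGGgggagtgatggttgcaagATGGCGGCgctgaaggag
Ell2: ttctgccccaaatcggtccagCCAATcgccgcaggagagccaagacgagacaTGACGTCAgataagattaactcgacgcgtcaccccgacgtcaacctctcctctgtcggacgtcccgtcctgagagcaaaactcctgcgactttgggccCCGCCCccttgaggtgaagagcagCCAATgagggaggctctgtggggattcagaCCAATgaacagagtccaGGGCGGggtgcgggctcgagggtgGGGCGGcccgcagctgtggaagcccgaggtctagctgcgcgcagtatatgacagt

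The promoters of Dot1l and Ell each held 1 match to the YY1 letters just after the start of transcription, which 2.24% of the 32851 promoters in the table held and no other promoter of the 9 genes. The promoter of Ell2 had 3 CCAAT boxes, 3 GC boxes and 1 CRE, the last of which was found in 1.79% of all promoters and in none of the other 12 examined here. The Mllt1 promoter had 7 GC boxes, some of them overlapping, and the 1 ETS match. GC boxes, searched as GGGCGG, were present in 9 of the 13 promoters, against 35.7% of all promoters, and CCAAT boxes in 5, against 37.4%. The Aff4 promoter held the 1 E box, searched as CACGTG, which 7.15% of all promoters held. No TATA box, searched as TATAAA, and no E2F or NRF1 letters were found in these 13 windows. The G and C content was above 60% in 10 of the 13, with a median of 52.7% over all promoters. A match to these letters is a description of the sequence and says nothing about binding. Whether such matches go with the direction of change was not tested.

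Dot1l (ENSMUSG00000061589) is annotated on chromosome 10 of mm9, 80217951 to 80258206, plus strand, and its longest annotated coding transcript has 28 exons and 6808 nucleotides. It was measured at 807, 781 and 701 normalized counts in Rnf40+/+ replicates 1 to 3 and at 1040.1, 913 and 854.5 in Rnf40-/- replicates 1 to 3, the order used for all genes that follow. Every Rnf40-/- library was thus above every Rnf40+/+ library, although the distance between the nearest ones was small. The means were 763 ± 55.3 and 936 ± 94.8 (SD, n = 3 each), so the log2 fold change was 0.29 with a standard error of 0.09 (limma, adjusted p = 0.0198). Leaving out the highest library, Rnf40-/- replicate 1, gave 0.21 and no call (adjusted p = 0.115, limma). A larger absolute log2 fold change than that of Dot1l was found for 55.5% of the tested genes. The genes with the pattern most like it, by the Euclidean distance of the log2 values of 6 libraries from their own mean, were Zfp609 (distance 0.0833), Med13l (0.102) and Abtb2 (0.111), which had log2 fold changes of 0.30, 0.35 and 0.26. This likeness includes the chance deviations of single libraries.

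Among the cofactors of DOT1L, neither Mllt6 nor Mllt10 was called. Mllt6 (ENSMUSG00000038437, chromosome 11 of mm9, 97524728 to 97546777, plus strand), which encodes the PHD finger protein AF17, had 1021, 974 and 964 normalized counts in Rnf40+/+ and 869, 889 and 865 in Rnf40-/- libraries. The groups did not overlap, but the log2 fold change of -0.17 (95% interval from -0.32 to -0.02) had an adjusted p of 0.0571 in limma. Mllt10 (ENSMUSG00000026743, chromosome 2, 17976898 to 18134017, plus strand), the gene of AF10, had 758, 763 and 691 against 703, 717 and 612 normalized counts. These ranges overlapped, and the log2 fold change of -0.12 had a 95% interval from -0.32 to 0.07 (adjusted p = 0.265, limma). Of the 5014 windows of 50 bases in the longest Mllt10 transcript, 561 also lie in transcripts of Dnajc1 on the opposite strand. The kit kept the strand of the RNA, but whether strand was used in counting is not given in the sources used here, so the value of Mllt10 is uncertain to that extent. The other 8 genes shared at most 15 such windows with another coding gene.

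The YEATS domain genes both rose. Mllt3 (ENSMUSG00000028496, chromosome 4 of mm9, 87415829 to 87679268, minus strand), which encodes AF9, had 515, 598 and 476 normalized counts with Rnf40 and 759.7, 929.9 and 737 without it. Even the lowest Rnf40-/- library was clearly above the highest Rnf40+/+ library. The means were 529 ± 62.1 and 809 ± 105 (SD, n = 3 each), giving 0.61 as the log2 fold change with a standard error of 0.11 (limma, adjusted p = 0.000755), which is exceeded in size by 26.1% of the tested genes. Mllt1 (ENSMUSG00000024212, chromosome 17, 57032035 to 57074836, minus strand), the gene of ENL, had 1172, 1166 and 1120.4 against 1415, 1420.4 and 1496 normalized counts. The spread within either group was narrow compared with the step between them. The means were 1152.5 ± 27.97 and 1444 ± 45.0 (SD, n = 3 each), and limma gave a log2 fold change of 0.32 with a standard error of 0.07 (adjusted p = 0.00158).

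Neither scaffold gene of the SEC was called. Aff1 (ENSMUSG00000029313, chromosome 5 of mm9, 104121393 to 104284341, plus strand) had 2482, 2693 and 2389 normalized counts in Rnf40+/+ and 2566, 2570.5 and 2391 in Rnf40-/- libraries, and the Rnf40-/- range lay within that of Rnf40+/+. Its log2 fold change of -0.0058 had a 95% interval from -0.15 to 0.14 (adjusted p = 0.953, limma). Aff4 (ENSMUSG00000049470, chromosome 11, 53164335 to 53235332, plus strand), the scaffold found in most forms of the complex, had 2418, 2522 and 2395 against 2379, 2388 and 2237 normalized counts. All Rnf40-/- values were below the Rnf40+/+ values, the nearest by little. The log2 fold change was -0.07 with a 95% interval from -0.20 to 0.07 (adjusted p = 0.403, limma). Counting these and the genes that follow, the libraries of both genotypes did not overlap for 7 of the 9 genes, against 56.5% of all tested genes and 65.5% of those with a mean in the same range.

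The ELL genes moved in opposite directions. Ell (ENSMUSG00000070002, chromosome 8 of mm9, 73063574 to 73116757, plus strand) had 682, 824 and 802 normalized counts with Rnf40 and 1206, 1168 and 1094 without it. The groups were far apart, and the means were 769 ± 76.4 and 1156 ± 56.9 (SD, n = 3 each), giving 0.59 as the log2 fold change with a standard error of 0.09 (limma, adjusted p = 0.000158). Ell2 (ENSMUSG00000001542, chromosome 13, 75844932 to 75909804, plus strand), best known for its role in antibody-secreting cells, had 1068, 1096 and 985 against 940.1, 796 and 834 normalized counts. Its highest Rnf40-/- library was just below its lowest Rnf40+/+ library. The means were 1049.8 ± 57.5 and 857 ± 74.6 (SD, n = 3 each), giving -0.29 as the log2 fold change with a standard error of 0.08 (limma, adjusted p = 0.0116). Without Rnf40-/- replicate 2, which had the lowest value, it was -0.24 and not called (adjusted p = 0.0591, limma).

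**Figure D2:**
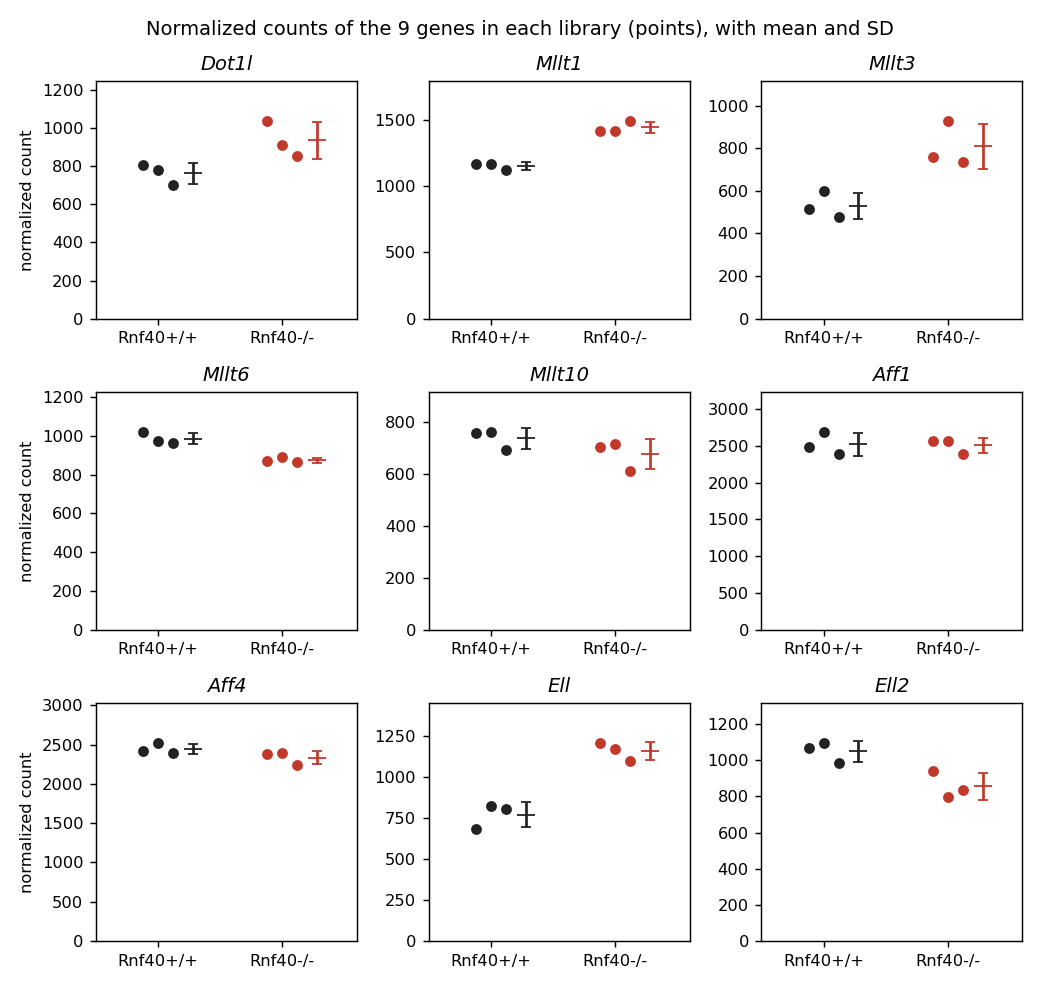
Normalized counts (vertical axes, linear from 0) of each of the 9 genes in the 3 Rnf40+/+ (black) and 3 Rnf40-/- (red) libraries, one point per library, with the mean and SD beside the points. The groups stand clear of each other for Mllt1, Mllt3 and Ell, and overlap for Mllt10 and Aff1.

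The balance within pairs of related genes was compared as the log2 ratio of their normalized counts in each library, which does not depend on the scaling of the library. For Ell over Ell2 this ratio was -0.65, -0.41 and -0.30 in Rnf40+/+ and 0.36, 0.55 and 0.39 in Rnf40-/- libraries. In every Rnf40+/+ library Ell2 thus had more normalized counts than Ell, and in every Rnf40-/- library it had fewer. The mean ratio differed by 0.89 between the genotypes (exact permutation test, two-sided, p = 0.1, which is the smallest p that 3 libraries against 3 can give, and 0.2 after adjustment over the 4 pairs). Per kilobase of the longest transcript, Ell made up 46.4% ± 3.06 of the sum of both genes in Rnf40+/+ and 61.5% ± 1.69 in Rnf40-/- MEFs (SD, n = 3 each).

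For Mllt1 over Mllt3 the ratio was 1.19, 0.96 and 1.23 in Rnf40+/+ and 0.90, 0.61 and 1.02 in Rnf40-/- libraries. These ranges overlapped, and the difference of -0.28 had an exact permutation p of 0.2 (adjusted 0.267). It was -0.17 without Rnf40-/- replicate 2. For Mllt6 over Mllt10 the mean ratio was 0.42 ± 0.06 and 0.37 ± 0.11 (SD, n = 3 each, exact permutation p = 0.6). For Aff1 over Aff4 it was 0.04 ± 0.05 and 0.10 ± 0.0071 (SD, n = 3 each), a difference of 0.061 (exact permutation p = 0.1, adjusted 0.2), which was 0.038 without Rnf40+/+ replicate 3. The difference in the Ell pair was therefore the largest of the 4. The longest identical stretch of the coding sequences of each pair is shown, 5′ to 3′ on the coding strand, and no window of 50 bases was shared within any of the 4 pairs.
Mllt1 and Mllt3 (17 bases): cagcactttgtggagaa
Mllt6 and Mllt10 (14 bases): ggccgacccaaagg
Aff1 and Aff4 (20 bases): gagagtgagagcagctccag
Ell and Ell2 (19 bases): atgacttcaatgctgagta

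**Figure D3:**
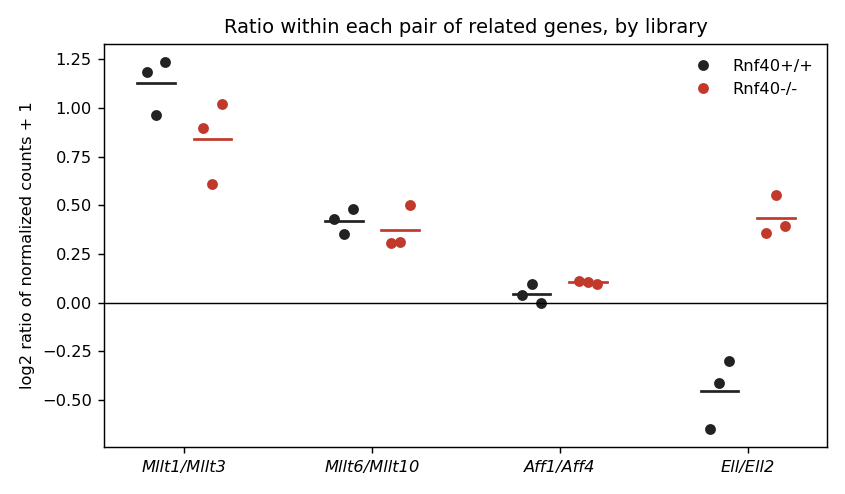
Log2 ratio of normalized counts + 1 (vertical axis) within the 4 pairs of related genes, one point per library in Rnf40+/+ (black) and Rnf40-/- (red) MEFs, with the group means as lines. The Ell/Ell2 ratio lies below 0 in all 3 Rnf40+/+ libraries and above 0 in all 3 Rnf40-/- libraries, while the Mllt1/Mllt3 and Mllt6/Mllt10 points overlap.

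Levels of different genes were compared as normalized counts per kilobase of the longest annotated coding transcript. In Rnf40+/+ MEFs the level was highest for Mllt1 (317 ± 7.70), Aff1 (303 ± 18.8) and Ell2 (288 ± 15.8, SD, n = 3 each). Ell (249.3 ± 24.8) and Aff4 (242 ± 6.69) followed, then Mllt10 (146 ± 7.97) and Mllt6 (136 ± 4.20). Dot1l (112 ± 8.12) and Mllt3 (87.2 ± 10.2) had the lowest levels. Neighbours in this order whose libraries overlapped were Mllt1 and Aff1, Aff1 and Ell2, Ell and Aff4, and Mllt10 and Mllt6. In Rnf40-/- MEFs Mllt1 (397 ± 12.4) and Ell (375 ± 18.4) came first with overlapping libraries, followed by Aff1 (301 ± 12.3). The levels of Ell2 (235 ± 20.5) and Aff4 (231 ± 8.39) also overlapped. At the low end Dot1l (137 ± 13.9), Mllt10 (134 ± 11.3), Mllt3 (133 ± 17.3) and Mllt6 (120 ± 1.80) could not be separated from their neighbours. Dot1l, Mllt3, Mllt6 and Mllt10 were therefore at a lower level than Aff1, Aff4, Ell and Ell2. Mllt1, which also encodes a partner of DOT1L, had the highest mean in both genotypes. These are statements on mRNA only. The transcript in use is not known, and per kilobase of all annotated exons Mllt3 had 44.1 and Aff4 had 182 in Rnf40+/+ MEFs.

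**Figure D4:**
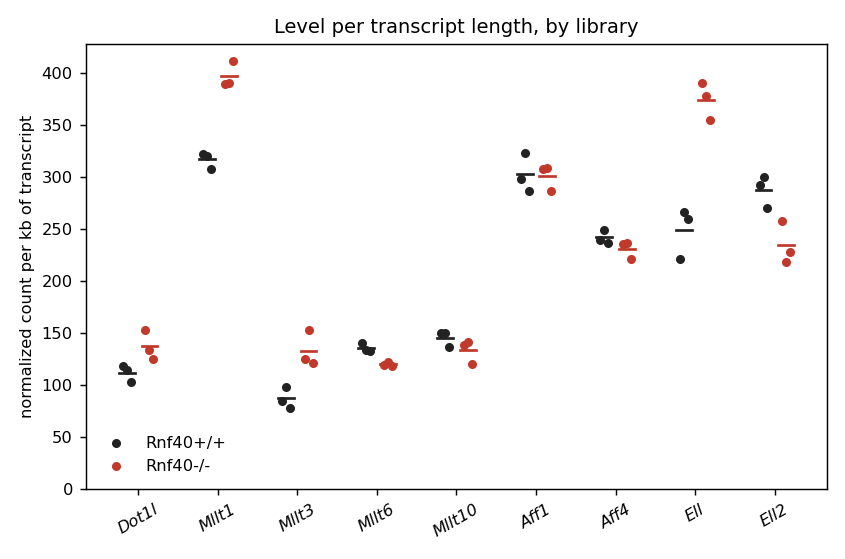
Normalized counts per kilobase of the longest coding transcript (vertical axis, from 0) for the 9 genes, one point per library in Rnf40+/+ (black) and Rnf40-/- (red) MEFs, with group means as lines. Mllt1, Aff1, Ell2, Ell and Aff4 sit above 200 in every library, and Dot1l, Mllt3, Mllt6 and Mllt10 below 160.

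Other genes of the elongation machinery were examined in a list of 16 genes, of which 3 were higher, 2 lower and 11 not called (31.2% called, against 47.4% of all tested genes). The median log2 fold change was -0.03. Of the P-TEFb subunits, the kinase gene Cdk9 had 1736, 1892 and 1931 normalized counts in Rnf40+/+ and 1725, 1747 and 1804 in Rnf40-/- libraries, and its log2 fold change of -0.07 was not called (adjusted p = 0.389, limma). The cyclin T1 gene Ccnt1 rose from 181 ± 16.7 to 253 ± 10.5 (SD, n = 3 each), with a log2 difference of 0.48 (adjusted p = 0.00536, limma). The cyclin T2 gene Ccnt2 had a log2 fold change of 0.11 (adjusted p = 0.205, limma).

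Of the genes of the 7SK particle, which holds P-TEFb inactive, Hexim1 and Larp7 were called as lower, while Mepce (log2 fold change -0.16, limma, adjusted p = 0.247) and Hexim2 (-0.87, adjusted p = 0.0517) were not called. Hexim1, the gene of the inhibitor protein, had 972, 745 and 908 normalized counts in Rnf40+/+ and 612, 597 and 609.95 in Rnf40-/- libraries, which did not overlap (log2 fold change -0.52 with a standard error of 0.10, limma, adjusted p = 0.000965). Larp7, which binds 7SK RNA, was lower with a log2 fold change of -0.33 (limma, adjusted p = 0.0228), but lost its call without any one of 4 libraries. BC018507 had a log2 fold change of 0.41 (adjusted p = 0.00251, limma). The ELL partner Eaf1 had -0.11 (adjusted p = 0.248, limma). Among the relatives of the 9 genes that most tissues express weakly, Aff2, Aff3 and Ell3 were all detected and none was called. Eaf2, a relative of Eaf1, was also detected and not called.

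Genes that depend on the SEC for rapid induction in many cell types, the immediate early and heat shock genes, were examined in a list of 20. Of these 9 were higher, 7 lower and 4 not called. The share called was 80.0%, against 47.4% of all tested genes and 58.2% of those in the expression range of the 9 genes. Many of the 20 response genes lie below or above that range. Their median log2 fold change was 0.08, but the median absolute value was 0.61, against 0.33 over all tested genes. The early growth response genes fell, Egr3 from 112 ± 9.90 to 39.7 ± 10.9 and Egr2 from 79.3 ± 19.6 to 29.6 ± 7.45 normalized counts (SD, n = 3 each), log2 fold changes of -1.51 and -1.39. Egr1 fell from 2523 ± 521 to 1137 ± 169 normalized counts (SD, n = 3 each). Fosb had a log2 fold change of -0.86 and lost its call without Rnf40+/+ replicate 2 or without Rnf40-/- replicate 2. The stress-induced factor Atf3 rose from 119 ± 4.27 to 235 ± 22.1 normalized counts (log2 fold change 0.97). The adjusted p values of these 5 genes lay between 3.92e-05 and 0.0169 (limma).

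Genes known as targets of DOT1L in leukaemia with MLL fusions were examined in a list of 14. Of these 3 were higher, 6 lower and 5 not called (64.3% called, against 47.4% of all tested genes). The share was 58.2% among genes in the expression range of the 9 genes, but most of the 14 targets lie below that range. The median log2 fold change was 0.00062. Meis1, a homeobox gene and the best known of these targets with the HoxA genes, had 689, 630.2 and 717 normalized counts in Rnf40+/+ and 347, 380 and 327 in Rnf40-/- libraries, and its log2 fold change was -0.95 with a standard error of 0.09 (limma, adjusted p = 7.26e-06). Its groups were far apart. Mef2c (-0.62) and Pbx3 (-0.51) were also lower, and Cdk6 was higher by 0.55, with adjusted p values between 0.0144 and 0.0241 (limma). Each of these 3 calls was lost when certain single libraries were left out. Without Rnf40+/+ replicate 1 the log2 fold change of Mef2c was -0.37, and 2 of the 14 genes were called as lower. Of the 5 HoxA genes in the list Hoxa10 was called, as higher, and the other 4 were not. Methylation of H3K79 was not measured here.

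**Figure D5:**
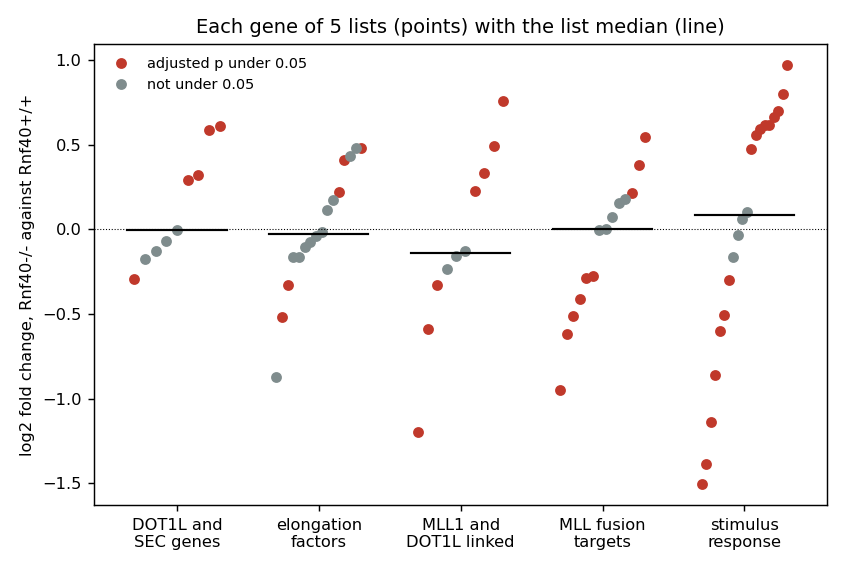
Log2 fold change between Rnf40-/- and Rnf40+/+ MEFs (vertical axis) of each gene in the 9 genes described and in 4 lists of related genes, with red points for an adjusted p under 0.05 and a line at each list's median. The stimulus response genes spread widest, from -1.51 to 0.97, and the 9 genes lie between -0.29 and 0.61.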

How the data were processed

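RNA-seq of 3 Rnf40+/+ and 3 Rnf40-/- MEF samples was analysed. The authors aligned to mm9 transcripts and scaled with DESeq (Bowtie2 2.1.0 and DESeq 1.14.0 in the submitters' processing notes), so that the deposited signal is a read number over a size factor. Multiplying by that factor returned whole reads for 100% of values in each library (tolerance 0.01). The size factors were between 0.837 and 1.25. A gene with 3 reads has a normalized count between 2.40 and 3.58. Counting tool and strand setting are not given in the sources used here.

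The filter on low reads was filterByExpr (edgeR 4.0.16, recovered reads), and genotypes were compared with limma (version 3.58.1, eBayes with trend) on log2(normalized count + 1) over 16378 genes, with Benjamini-Hochberg adjustment. A call is an adjusted p under 0.05. The added 1 slightly understates fold changes of weak genes. Pair ratios were tested with the exact permutation test of scipy (version 1.17.1). The genes and lists were chosen with earlier results of these data known. All 9 genes are reported whatever their value. Of each list of other genes, those named are up to 5 called genes with the largest change, and 8 factors fixed by name, of which Kmt2a appears in the table as Mll1. The markers C1qa, Ptprc, Cd14, Lyz2, Tek, Acta1, Des, Ddx3y, Xist, Myod1, Myog and Myf5 were chosen after their values were seen. So were the genes Mepce and Hexim2. Other genes outside the rule are named without values. A pair of genes that the rule names is not reported here.

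Alternatives were the quasi-likelihood test of edgeR and the Wald test of DESeq2 (version 1.42.0) on recovered reads, size factors of DESeq2, TMM and upper-quartile scaling, pseudocounts of 0.1 and 10, no filter, a mean above 15, a replicate block and each library left out. The tests were checked on simulated reads. Calculations used R (version 4.3.3) and Python (version 3.11.15). Coordinates and transcripts are from the GENCODE annotation of mm9. Protein sequences and the ChIP-seq experiments were not analysed here.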

Additional observations from a re-analysis of the deposited data

How the results depend on the processing

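The 9 genes were refitted under 16 alternatives each. Mllt1, Mllt3 and Ell were called as higher under all 16, with log2 fold changes from 0.30 to 0.34, from 0.51 to 0.70 and from 0.51 to 0.64. Dot1l (0.21 to 0.35) was called under 15 of 16, losing its call without Rnf40-/- replicate 1, and Ell2 (-0.36 to -0.24) under 15 of 16, losing it without Rnf40-/- replicate 2. Mllt6 (-0.19 to -0.15), Mllt10 (-0.17 to -0.053) and Aff4 (-0.084 to -0.036) were called under none and kept their sign, the values of Mllt10 and Aff4 nearest 0 being those without Rnf40-/- replicate 3. Aff1 lay between -0.044 and 0.043, and its sign turned without Rnf40+/+ replicate 2 (0.043) and without Rnf40-/- replicate 3 (0.029), never with a call. With each library left out, the number of the 9 genes called as lower was between 0 and 1 and that called as higher between 3 and 4. The number of other elongation genes called as lower was between 1 and 2, that of MLL fusion targets called as higher between 0 and 3 and called as lower between 2 and 6. Without a minimum fold change 6 of the 9 genes passed the criteria of the study in place of 0. The log2 ratio of Ell over Ell2 differed by between 0.79 and 0.96 with each library left out. The replicate numbers were not taken as pairs, and whether they pair the samples is not stated in the sources used here. Same-numbered libraries had correlations of their deviations between -0.0153 and 0.0257. Differently numbered ones had correlations between -0.0947 and 0.0721. With 3 libraries per genotype these values cannot settle whether samples were paired. With the replicate block the 4 higher and 1 lower calls among the 9 genes remained, and the exact sign-flip p of Ell over Ell2 was 0.25, the smallest that 3 pairs can give. No scaling moved the median of all genes by over 0.1.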

Other observations

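Of 10 chromatin genes linked to MLL1, DOT1L or AF9, 4 were higher, 3 lower and 3 not called. The share called was 70.0%, against 47.4% of all tested genes and 58.2% of those in the expression range of the 9 genes. Several of the 10 chromatin genes lie below or above that range. Mll1 (now Kmt2a), the H3K4 methyltransferase whose fusions in leukaemia join it to ENL, AF9, AF10, AF4 or ELL, had 1612, 1488 and 1539 normalized counts in Rnf40+/+ and 2669, 2765 and 2448 in Rnf40-/- libraries, and its log2 fold change was 0.76 with a standard error of 0.07 (limma, adjusted p = 3.68e-06). Every Rnf40-/- library was far above the Rnf40+/+ libraries. The mRNAs of Psip1 and Men1, whose products tether MLL1 to chromatin, were lower. Psip1, the gene of LEDGF, had 1064, 912 and 835 against 391.6, 407 and 420.2 normalized counts (log2 fold change -1.20, adjusted p = 1.55e-06, limma), and Men1, the gene of menin, had 844, 708 and 809.75 against 614, 615 and 646 (log2 fold change -0.33, adjusted p = 0.00749, limma). The H3K9 methyltransferase gene Suv39h1 fell by 0.59 on the log2 scale, whereas the corepressor gene Bcor rose by 0.33 and Skp1a, a subunit of ubiquitin ligases, by 0.49.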
